A study of Mus musculus with 6 samples.

Results

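The chemokine genes followed here, in purified mouse mammary cells of 2 ages, are Cxcl1, Cxcl2, Cxcl5, Cxcl10, Cxcl12, Cxcl14, Cxcl16, Ccl2, Ccl7 and Ccl20. They were picked by name, as every probe whose accession belongs to 1 of these genes, which gave 11 of the 55681 mouse probes on the array and 10 of the 20660 genes that could be matched. Cxcl12 had 2 probes and each of the other genes had 1. RNA came from 3 samples of E18.5 fetal cells, sorted as CD31-CD45-Ter119-EpCAM++CD49f+ after a short digestion of the gland, and from 3 samples of adult basal cells of mice 8 to 12 wk old, kept by the gate CD31-CD45-Ter119-BP-1-EpCAM+CD49f+ after an overnight digestion. All 6 samples are labelled as female C57Bl6J mammary gland, and no mutation, transgene or drug is named for either group. Each sample was hybridized to 1 one-color Agilent array, on which the signal of each spot reflects the amount of dye-labelled RNA that it bound. The samples are labelled biological replicates, but the labels do not say which animals or pools gave each, so the spread below is the spread between these samples. In a sorted population of this kind, more cells that make a transcript and more transcript per cell cannot be told apart. Age, sort gate and length of digestion differ together between the groups and cannot be told apart either.

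Chemokines are small secreted proteins that bind seven-helix receptors and draw cells along a gradient. CXC ligands with the ELR motif, such as Cxcl1, Cxcl2 and Cxcl5, act on Cxcr2 and recruit neutrophils; Cxcl10 is an interferon-inducible ligand of Cxcr3; Cxcl12 acts on Cxcr4 and on the scavenging receptor Ackr3; and Ccl2 and Ccl7 act on Ccr2 and recruit monocytes. Inflammatory chemokine genes are classical targets of the transcription factor NF-kappaB, whereas Cxcl12 and Cxcl14 are made by many resting tissues.

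These genes did not move as a group. Cxcl1, Cxcl2 and Cxcl10 were each higher in the fetal cells by a log2 difference of 3.36 to 3.57, and Cxcl12 and Cxcl14 were lower there, at log2 differences, fetal minus adult, of -4.32 and -4.55. Ccl7, Ccl2 and Cxcl16 had lower values on every fetal array than on any adult array, but none of these 3 differences was called. Cxcl5 overlapped between the groups, and Ccl20 never rose well above background. A difference is called here where the Holm-adjusted p is 0.05 or less together with a log2 difference of at least 1, in a limma model over the 20448 probes that passed a filter on low signal. By that rule 5 of the 9 tested genes were called, beside 11.1% of all tested probes, with 5.92% of probes called in the fetal direction (3 of the 9 genes) and 5.18% in the adult direction (2 of the 9). The groups did not overlap for 3 genes in the fetal and 5 in the adult direction, beside 34.1% and 35.0% of the tested probes with values on all arrays. The median log2 difference, fetal minus adult, was -0.69 over the 9 genes, of which Ccl7 passed the filter only through the adult group, and -0.03 over all tested probes. With Benjamini-Hochberg in place of Holm adjustment Ccl2 and Ccl7 were also called, which made 7 of 9, beside 30.0% of all tested probes. All 9 tested genes were well above background on all 6 arrays, and no spot was saturated. The arrays lay on 2 slides, with adult replicates 1 and 3 and fetal replicate 1 on the first. Within the first and the second slide the log2 difference was 3.61 and 3.53 for Cxcl1, 3.28 and 3.90 for Cxcl2 and 3.08 and 3.76 for Cxcl10. It was -4.53 and -4.14 for Cxcl12 and -4.74 and -4.32 for Cxcl14. The groups of these 5 genes did not overlap, so the split by slide could not turn their direction and shows only the sizes.

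**Figure D1:**
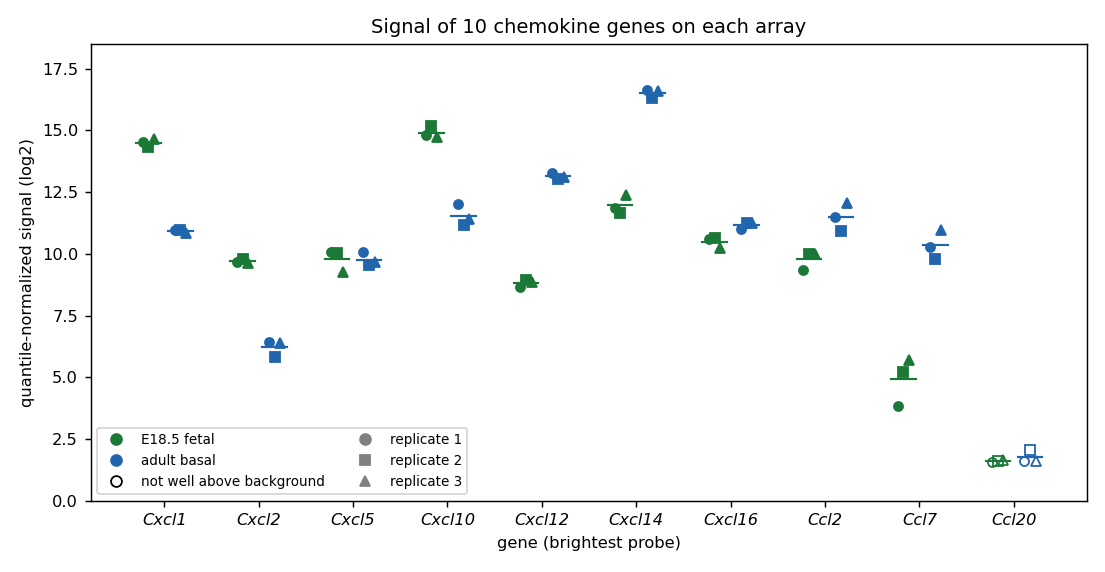
Quantile-normalized log2 signal (vertical axis) of the brightest probe of each of the 10 chemokine genes on each array, with 1 point per array, E18.5 fetal in green, adult basal in blue and a bar at the group mean. Cxcl1, Cxcl2 and Cxcl10 are higher on all 3 fetal arrays, Cxcl12, Cxcl14 and Ccl7 are higher on all 3 adult arrays, and the open symbols of Ccl20 are not well above background.

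The population labels were checked against marker genes. Of 9 basal markers, 7 were called higher in adult basal cells, beside 5.18% of all tested probes. Myh11 passed the low-signal filter only through the adult group, which fixed its direction. The others included Acta2, the smooth muscle actin of myoepithelial cells, at 18.47 ± 0.08 against 14.41 ± 0.29 (mean log2 signal ± SD, n = 3), and Krt5, a basal keratin, at 17.12 ± 0.18 against 13.21 ± 0.39. Krt5 was lost without adult replicate 1 or fetal replicate 1 (highest adjusted p 0.0563), and Krt14, another basal keratin, was not called. Trp63, the defining transcription factor of basal cells, disagreed between probes: the brighter one gave 13.30 ± 0.11 in fetal and 13.38 ± 0.06 in adult cells, and the other, which passed the rule, 10.59 ± 0.11 and 13.65 ± 0.06. Of the 8 luminal markers tested, 4 were called higher in fetal cells, beside 5.92% of all tested probes. Elf5, a luminal progenitor factor, was at 12.65 ± 0.15 against 5.10 ± 0.28 and passed the low-signal filter only through the fetal group, which fixed its direction, and Kit was at 10.86 ± 0.04 against 6.86 ± 0.31. The other 2 of these 4, Foxa1 and Pgr, were lost without adult replicate 3 or any 1 fetal replicate, which leaves 2. Krt19, a luminal keratin, lay the other way, at 11.85 ± 0.23 against 13.07 ± 0.21, and passed under Benjamini-Hochberg adjustment. Krt18, the brightest of the luminal list, was at 16.94 ± 0.22 in fetal and 16.36 ± 0.07 in adult cells and was not called. Adult basal replicate 3 stood apart from the other adult arrays in several transcripts of leukocytes, the blood cells that the CD45- gate was set to remove: Tyrobp, a signalling adaptor of myeloid cells, read 7.82, 7.16 and 9.64 on adult replicates 1, 2 and 3, and Cd52 read 8.19, 7.39 and 9.80. Differences of Ccl2, Ccl7, Ccl8, Ccl12, Cd52, Tyrobp and Lyz2 are given with and without it.

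Promoter sequences of the genes that were called are shown because 3 of them moved together toward the fetal cells and 2 the other way. The RefSeq promoter table used here, on GRCm38.p6, holds an entry for 6 of the 10 genes, namely the 5 called genes and Ccl20. Cxcl5, Cxcl16, Ccl2 and Ccl7 have none, so their promoters could not be set beside those of the called genes. Each entry runs from 250 bases before to 50 bases after the annotated start. The 250 bases before the start are printed 5′ to 3′ on the gene's own strand, for Cxcl1 at chr5:90890995-90891244 (plus strand), Cxcl2 at chr5:90903649-90903898 (plus), Cxcl10 at chr5:92348890-92349139 (minus), Cxcl12 at chr6:117168285-117168534 (plus) and Cxcl14 at chr13:56296552-56296801 (minus). Capitals mark matches on either strand to the 10-base NF-kappaB consensus, or to the interferon response core, which is GAAA repeated after any 2 bases.
Cxcl1: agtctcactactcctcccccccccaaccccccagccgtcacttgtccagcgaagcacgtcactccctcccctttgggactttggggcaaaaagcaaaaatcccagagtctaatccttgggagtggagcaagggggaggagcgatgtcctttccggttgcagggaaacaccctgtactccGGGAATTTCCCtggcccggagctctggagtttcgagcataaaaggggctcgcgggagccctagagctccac
Cxcl2: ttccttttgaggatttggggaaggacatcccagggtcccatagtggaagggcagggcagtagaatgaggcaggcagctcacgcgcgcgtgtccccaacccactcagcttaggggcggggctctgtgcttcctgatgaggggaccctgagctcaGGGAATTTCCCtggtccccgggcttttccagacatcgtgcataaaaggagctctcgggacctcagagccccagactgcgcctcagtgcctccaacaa
Cxcl10: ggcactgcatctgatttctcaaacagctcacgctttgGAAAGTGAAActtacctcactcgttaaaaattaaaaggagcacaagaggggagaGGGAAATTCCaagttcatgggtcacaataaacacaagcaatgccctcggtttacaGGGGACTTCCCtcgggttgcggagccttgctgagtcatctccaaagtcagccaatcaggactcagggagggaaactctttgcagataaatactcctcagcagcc
Cxcl12: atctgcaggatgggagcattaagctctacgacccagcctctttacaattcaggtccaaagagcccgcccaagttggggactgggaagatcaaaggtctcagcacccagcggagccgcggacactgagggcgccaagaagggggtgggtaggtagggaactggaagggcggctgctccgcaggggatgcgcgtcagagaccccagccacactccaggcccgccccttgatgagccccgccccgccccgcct
Cxcl14: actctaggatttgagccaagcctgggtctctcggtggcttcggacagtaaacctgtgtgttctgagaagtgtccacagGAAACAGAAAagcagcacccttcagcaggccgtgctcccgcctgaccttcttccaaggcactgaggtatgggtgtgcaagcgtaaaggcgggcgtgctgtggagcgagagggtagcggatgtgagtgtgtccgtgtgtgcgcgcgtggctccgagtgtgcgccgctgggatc

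The promoters of Cxcl1 and Cxcl2 each hold the run GGGAATTTCCC, which begins 71 bases before the start of Cxcl1 and 97 bases before that of Cxcl2. In both runs the match on the plus strand overlaps one on the minus strand by all but its end bases. Cxcl10 holds a match to the NF-kappaB consensus 159 bases before its start, a group of overlapping matches within the run GGGGACTTCCC from 104 bases before it, and the interferon core as GAAAGTGAAA from 213 bases before it. No match to the NF-kappaB consensus lies in the windows of Cxcl12 or Cxcl14, and Cxcl14 holds the interferon core once, as GAAACAGAAA. In Ccl20, which was not measurable on these arrays, 1 match to the NF-kappaB consensus begins 80 bases before the start. Over all 32851 promoter entries of the same length, 8.46% hold the NF-kappaB consensus and 3.44% the interferon core on either strand. These are matches of letters, and binding was not measured.

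**Figure D2:**
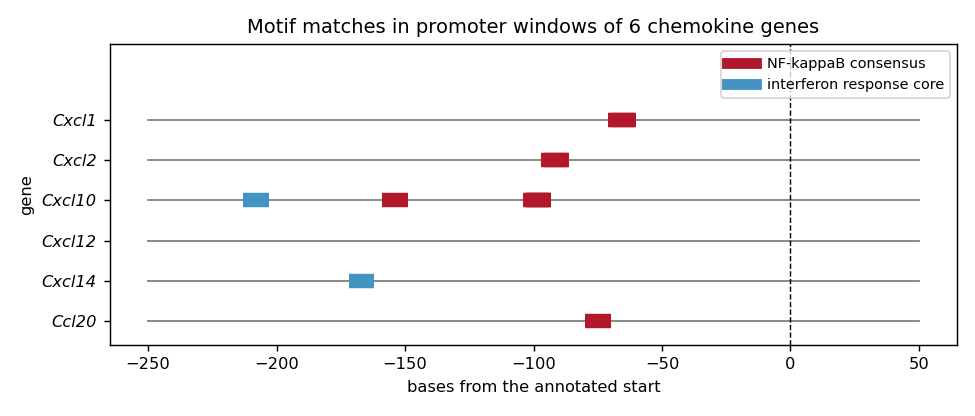
Position, in bases from the annotated start (horizontal axis), of matches to the NF-kappaB consensus (red) and the interferon response core (blue) in the promoter windows of 6 chemokine genes, 1 line per gene. Cxcl1, Cxcl2, Cxcl10 and Ccl20 hold NF-kappaB matches upstream of the start, and the windows of Cxcl12 and Cxcl14 hold none.

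Among the Cxcr2 ligands, Cxcl1 read 14.53, 14.33 and 14.66 on fetal replicates 1, 2 and 3 and 10.98, 10.96 and 10.85 on adult basal replicates 1, 2 and 3, in log2 signal. The 3 fetal arrays lay close together and far above the 3 adult arrays, with no overlap. The difference was 3.57 (SE 0.12, 11.9-fold, 95% interval 3.30 to 3.85, Holm-adjusted p = 1.46e-04 in limma). Cxcl1 was called in all 18 alternative settings tried, at log2 differences of 3.50 to 3.67.

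Cxcl2, encoded next to Cxcl1 on chromosome 5 with no protein-coding gene between them, read 9.69, 9.80 and 9.65 on the fetal arrays against 6.45, 5.82 and 6.37 on the adult arrays. The groups were again apart, with adult replicate 2 the lowest. The difference was 3.49 (SE 0.18, 11.3-fold, Holm-adjusted p = 0.00296 in limma). Its call was lost without fetal replicate 1 (adjusted p = 0.0661) or without fetal replicate 2 (0.0554), with the log2 difference at 3.51 and 3.45. After normexp background correction the log2 difference was 2.72 and the call was kept.

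Cxcl5, a further Cxcr2 ligand, lies 4 protein-coding genes from Cxcl1 on the same chromosome, with Ppbp, Pf4, Cxcl3 and Cxcl15 between. It read 10.07, 10.03 and 9.26 on the fetal arrays against 10.09, 9.54 and 9.67 on the adult arrays. Fetal replicate 3 was the lowest of the 6 values and adult replicate 1 the highest, so the groups overlapped. The log2 difference of 0.01 (SE 0.25) had a 95% interval of -0.57 to 0.60, which leaves out changes of the size seen for Cxcl1 and Cxcl2. Cxcl3, a close relative in the same gene cluster, stayed below the low-signal limit in both groups (4.42 ± 0.93 and 5.31 ± 0.82, SD, n = 3), and so was not tested.

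The Cxcr3 ligand Cxcl10 read 14.81, 15.16 and 14.73 on the fetal arrays against 12.03, 11.18 and 11.43 on the adult arrays. The groups did not overlap, and the adult arrays were spread more widely than for Cxcl1 (SD 0.44 against 0.07). The difference was 3.36 (SE 0.23, 10.2-fold, Holm-adjusted p = 0.0257 in limma). The log2 difference stayed between 3.17 and 3.60 in the 18 alternatives, but the call was lost in 9 of them, including without adult replicate 3 (adjusted p = 0.247), without fetal replicate 1 (0.350), 2 (0.245) or 3 (0.204), and with the array slide as a block (0.0920).

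The interferon-response list was chosen to set beside Cxcl10. Of its 12 tested genes, 7 were called higher in adult basal cells and none in fetal cells, beside 5.18% and 5.92% of all tested probes. Ifit1, Ifit2, Ifit3 and Rsad2 passed the low-signal filter only through the adult group. Among those well above background everywhere, Oasl2, an oligoadenylate synthetase-like protein, was at 7.80 ± 0.36 in fetal and 13.52 ± 0.44 in adult cells, Usp18, which removes Isg15 from proteins, was at 6.15 ± 0.40 and 11.55 ± 0.19, and Isg15, a ubiquitin-like protein, was at 9.76 ± 0.19 and 14.32 ± 0.36. Cxcl10 thus lay on the opposite side from these interferon-induced genes. Irf1, a transcription factor induced by interferon and by NF-kappaB and picked out after its values were seen, lay on the side of Cxcl10, at 14.26 ± 0.25 against 12.55 ± 0.30, without being called. Cxcl9, another Cxcr3 ligand, was at 7.28 ± 0.11 and 6.90 ± 0.22 and was not called, and Cxcl11 has no matched probe here.

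A list of NF-kappaB subunits, regulators and target genes was chosen to set beside the 3 fetal-high ligands. It had 19 tested genes and a median log2 difference of -0.03. In the fetal direction Tnf, a cytokine that both induces and responds to NF-kappaB, was at 9.64 ± 0.41 against 5.90 ± 0.11 (Holm-adjusted p = 0.00494 in limma) and passed the low-signal filter only through the fetal group, so the filter fixed its direction. On the same side Nfkbia, the inhibitor IkappaB-alpha, was at 15.44 ± 0.15 against 13.34 ± 0.22 (0.0273), and Nfkbiz, a nuclear IkappaB protein, at 10.62 ± 0.16 against 8.54 ± 0.17 (0.0165). Csf1, the macrophage growth factor, was called in the adult direction at 9.96 ± 0.21 against 12.49 ± 0.30 (0.0329). These 4 of 19 genes, 3 in the fetal and 1 in the adult direction, stand beside 5.92% and 5.18% of all tested probes called in those directions. Of the 3 fetal-high ligands, Cxcl1 was kept in 18 of 18 alternatives, Cxcl2 in 16 and Cxcl10 in 9. Of the 4 genes called in this list, Tnf was kept in 14, Nfkbiz in 10, and Nfkbia and Csf1 in 8 each. All 4 were lost without adult replicate 1 or 3 or fetal replicate 2, with the highest adjusted p over single arrays left out at 0.0762 for Tnf, 0.205 for Nfkbiz, 0.323 for Nfkbia and 0.404 for Csf1, and the other probes of Csf1 gave smaller log2 differences of -0.97 and -0.96. Nfkbia and Nfkbiz were also lost with the slide as a block (adjusted p = 0.129 and 0.0589). Of the 15 immediate early genes, which cells switch on within minutes of a stimulus, 2 were called, beside 11.1% of all tested probes, both in the fetal direction: Nr4a1 at 17.23 ± 0.12 against 13.73 ± 0.51 and Fosb at 12.91 ± 0.06 against 10.54 ± 0.16. Nr4a1 was kept in 8 of 18 alternatives (highest adjusted p with 1 array left out, 0.362) and Fosb in 16 (0.0553), and the median log2 difference of the list was 1.34. Under Benjamini-Hochberg adjustment 9 passed in the fetal direction and 1, Myc (-1.34), in the adult direction, beside 30.0% of all tested probes in either direction, and Ier3, Egr2 and Dusp1 also had negative estimates. The part of these genes in the fetal-high result was not tested.

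Cxcl12 is the ligand of Cxcr4. Its brighter probe read 13.27, 13.04 and 13.11 on the adult arrays against 8.66, 8.94 and 8.84 on the fetal arrays. Each group was tight and the groups were far apart. The log2 difference, fetal minus adult, was -4.32 (SE 0.12, 20.0-fold lower in fetal cells, Holm-adjusted p = 4.50e-05 in limma). The second probe, A_55_P1966204, gave -4.45 (SE 0.15), with 11.72 ± 0.14 on the adult arrays against 7.27 ± 0.23 on the fetal arrays. The call was kept in all 18 alternatives.

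Cxcl14 is a ligand made by epithelia and stroma at rest. It read 16.62, 16.33 and 16.60 on the adult arrays and 11.87, 11.64 and 12.38 on the fetal arrays. The groups did not overlap, and fetal replicate 3 was the highest of the fetal values. The log2 difference was -4.55 (SE 0.20, 23.5-fold lower in fetal cells, Holm-adjusted p = 0.00106 in limma), and the call was kept in all 18 alternatives. The fetal signal of Cxcl14 nonetheless remained well above background on all 3 arrays.

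Fibroblast transcripts lay on the same side as Cxcl12 and Cxcl14, although both sorts selected EpCAM-positive cells and the adult sort also removed BP-1-positive stroma. All 9 tested fibroblast markers, of which Pdgfrb passed the low-signal filter only through the adult group, were lower in fetal cells in mean signal. For Col1a1, however, the log2 difference was only -0.01 (SE 0.25), the groups overlapped, and the sign turned without adult replicate 3 (0.28). Beside 5.18% of all tested probes called in the adult direction, 2 were called, Dcn, a proteoglycan of connective tissue, at 9.61 ± 0.15 against 13.38 ± 0.34 and Pdgfrb, a mesenchymal growth factor receptor, at 4.97 ± 0.24 against 9.31 ± 0.25. Dcn was lost without fetal replicate 1 (adjusted p = 0.0523). Under Benjamini-Hochberg adjustment 4 passed, all higher in adult cells, beside 14.0% of all tested probes. The brightest of the list over all 6 arrays, the collagen gene Col1a2, was at 11.43 ± 0.23 against 12.32 ± 0.49 and was not called. The summed linear signal of the 10 markers was 19186, 23148 and 30014 units on adult replicates 1, 2 and 3 and 7075, 7139 and 8752 on the fetal arrays. Cxcl12 and Cxcl14 were highest on adult replicate 1 and lowest on adult replicate 2, an order that Pdgfra shared. Col1a2 and Fbn1 were also lowest on replicate 2, but highest on replicate 3. Col1a1, Col3a1, Dcn, Dpt, Lum and Pdgfrb were lowest on replicate 1 and highest on replicate 3. Thy1 was lowest on replicate 1 and highest on replicate 2. The part of fibroblast RNA in the adult-high result was not tested. Of the 8 endothelial markers 6 were tested and none was called, with 3 of the 6 passing under Benjamini-Hochberg adjustment, all higher in adult cells, beside 14.0% of all tested probes. These 3 were the endothelial junction genes Cdh5 (-2.70) and Esam and the sialomucin Emcn (-1.79). Each passed the low-signal filter only through the adult group. Esam was well above background on only 1 of the fetal arrays, so no exact difference is given for it. Pecam1, which encodes the CD31 antigen used to gate endothelium out, read 9.10 ± 0.04 against 9.25 ± 0.17, and Kdr, the brightest, 13.45 ± 0.12 against 13.49 ± 0.17. Their part in the result was not tested.

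**Figure D3:**
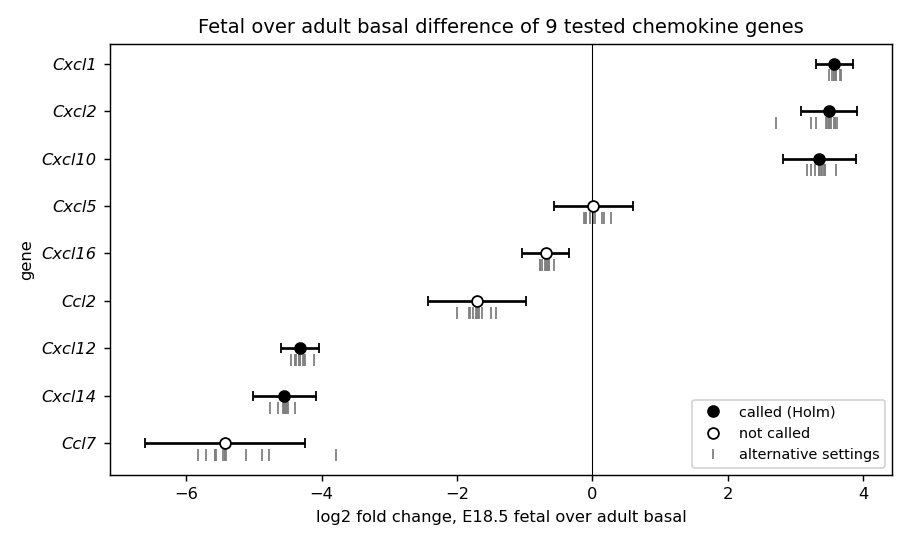
Log2 fold change, E18.5 fetal over adult basal (horizontal axis), of the 9 tested chemokine genes, with 95% intervals from the limma model as bars and the values under the alternative settings as gray ticks. Filled points are the 5 called genes, 3 higher in fetal and 2 higher in adult basal cells; the ticks of Cxcl5 fall on both sides of 0 and those of Ccl7 spread the most.

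Cxcl16 is made as a membrane-bound ligand of Cxcr6 and is released by the protease Adam10. It read 10.58, 10.65 and 10.23 on the fetal arrays against 11.01, 11.27 and 11.26 on the adult arrays. Every fetal value was below every adult value, but the log2 difference of -0.69 (SE 0.15, 1.61-fold) was under 2-fold and was not called (Holm-adjusted p = 1, Benjamini-Hochberg-adjusted p = 0.00465 in limma). It kept its sign in the 18 alternatives, between -0.77 and -0.56. Groups without overlap were common on these arrays, at 69.1% of those probes over both directions.

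Of the CC ligands, Ccl2 read 9.36, 9.99 and 9.997 on the fetal arrays against 11.48, 10.92 and 12.08 on the adult arrays. The groups did not overlap, and adult replicate 3 was the highest and adult replicate 2 the lowest of the adult values. The log2 difference was -1.71 (SE 0.31, 3.27-fold lower in fetal cells), which was not called by the Holm rule (adjusted p = 1) and passed under Benjamini-Hochberg adjustment (0.00207). Without adult replicate 3 it was -1.42. The log2 difference was -2.42 within the first slide and -0.93 within the second.

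Ccl7, the gene next to Ccl2 on chromosome 11, had the largest estimated difference of the 9 genes and the widest error. It read 3.83, 5.22 and 5.70 on the fetal arrays against 10.28, 9.77 and 10.97 on the adult arrays. The fetal values spread over almost 2 log2 units near the low end of the scale, although each was well above background, and the adult values followed the same order as those of Ccl2. The log2 difference was -5.43 (SE 0.50, 43.1-fold lower in fetal cells), with a Holm-adjusted p of 0.180 and a Benjamini-Hochberg-adjusted p of 6.59e-05 in limma. Ccl7 was called after 75th percentile normalization (adjusted p = 0.0399), after normexp background correction (0.00298, at a log2 difference of -3.78) and with an offset of 16 before log2 (0.0141, at -4.78). The difference was -6.80 within the first slide and -4.32 within the second, and -5.11 without adult replicate 3. Its size therefore depended on how low signals were treated. Its direction was kept in all 18 alternatives, but Ccl7 passed the low-signal filter only through the adult group, which fixed that direction. Leaving out an array could not turn it either, as the groups did not overlap.

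Ccl20, the ligand of Ccr6 that attracts lymphocytes and dendritic cells to epithelia, read 1.57, 1.63 and 1.66 on the fetal arrays against 1.61, 2.06 and 1.61 on the adult arrays. None of these was well above background, so no difference is given.

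Adult replicate 3 was the highest and adult replicate 2 the lowest of the adult arrays not only for Ccl2 and Ccl7. Of the 28 chemokine ligands well above background on all 3 adult arrays, 14 had that order, beside 3406 of the 19997 tested probes with this property. Ccl8 showed it most widely, at 11.69, 10.15 and 13.20 on adult replicates 1, 2 and 3, and the other 7 tested CXC genes among the 10 did not show it. Of the 13 leukocyte markers with a probe, 5 had the same order, among them Tyrobp, Cd52, Lyz2 and Laptm5. None of the 13 was called between fetal and adult cells, and 4 passed under Benjamini-Hochberg adjustment (Cd52, Coro1a, Lyz2 and Tyrobp, all higher in adult cells), beside 30.0% of all tested probes and 14.0% in the adult direction. Cd52, Lyz2, Tyrobp and Laptm5 passed the low-signal filter only through the adult group. Without adult replicate 3 the log2 difference moved from -2.80 to -2.08 for Tyrobp and from -1.76 to -1.09 for Lyz2. For Cd52 it moved from -4.39 to -3.71. Cd52 was well above background on only 2 of the fetal arrays, so its differences are not exact. Ptprc, which encodes the CD45 antigen used to gate leukocytes out, was at 6.75 ± 0.48 in fetal and 7.07 ± 0.22 in adult cells. Adgre1, which encodes the macrophage antigen F4/80, disagreed between probes: the brighter one gave 8.25 ± 0.11 and 8.67 ± 0.22, while the other fell short of that on each fetal array and read 6.63, 6.12 and 8.71 on the adult arrays. The summed linear signal of the leukocyte list was 31031, 40220 and 36978 on adult replicates 1, 2 and 3 and 39510, 33257 and 31205 on the fetal arrays, led in both by Itgam, an integrin chain of myeloid cells. Some leukocyte transcripts thus moved with Ccl2 and Ccl7 across the adult arrays. Of the fibroblast markers, Col1a2 and Fbn1 had the same order. Col1a1, Col3a1, Dcn, Dpt, Lum and Pdgfrb were also highest on replicate 3, but lowest on replicate 1, and Pdgfra and Thy1 were not highest on replicate 3. The part of leukocyte and fibroblast transcripts in these results was not tested.

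**Figure D4:**
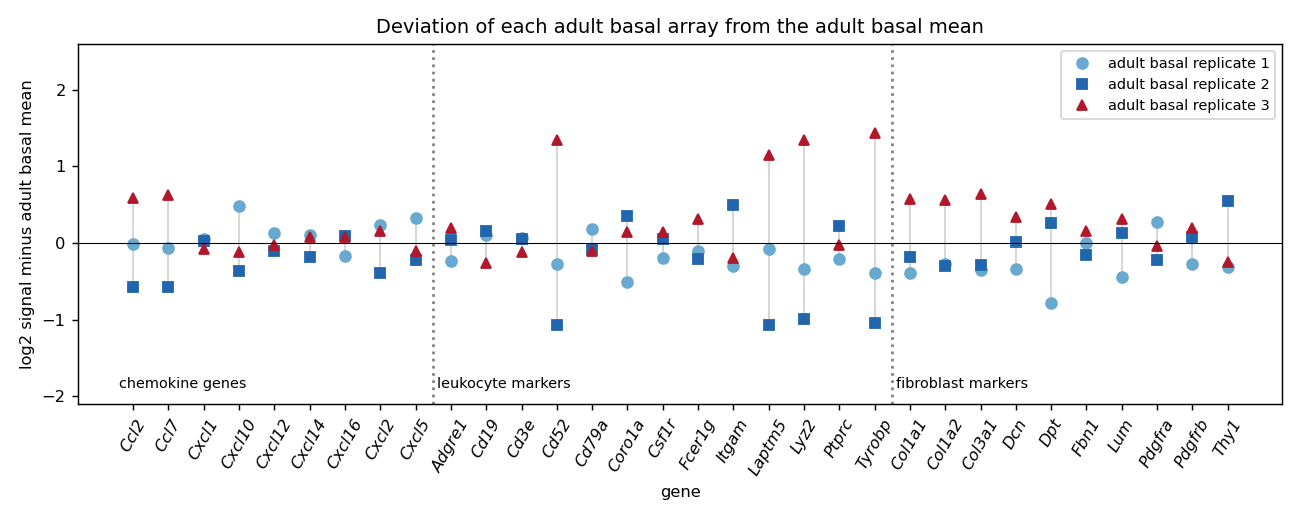
Log2 signal of each adult basal array minus the adult basal mean (vertical axis) for the 9 chemokine genes, 13 leukocyte markers and 10 fibroblast markers that were well above background on the adult arrays, separated by dotted lines. Ccl2 and Ccl7 have replicate 3 highest and replicate 2 lowest, as have Tyrobp, Cd52, Lyz2 and Laptm5, whereas Cxcl1, Cxcl12, Cxcl14 and Cxcl16 vary by less than 0.3 between adult arrays.

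The remaining chemokine ligands were set beside these genes. Of 28 listed, 26 had a probe and 18 passed the low-signal filter. Ccl11, Ccl12, Ccl24, Ccl3, Ccl6, Ccl8 and Cxcl13 passed it only through the adult group and Cxcl17 only through the fetal group, so the filter fixed the direction of these genes. Ccl11, the eosinophil attractant encoded next to Ccl7, was the only one of the 18 called, beside 11.1% of all tested probes. It read 8.32, 7.77 and 8.56 on the adult arrays while no fetal array was well above background (3.22 ± 0.18), so the adult signal was at least 21.7-fold higher (Holm-adjusted p = 8.74e-04 in limma). Ccl11 was called in all 18 alternatives, but the size of its fitted log2 difference depended on how low signals were treated, being -5.00 here, -3.63 with an offset of 16 and -2.36 after normexp correction. Both of these fall short of that bound, which holds for the main processing only. Such a bound sets the adult mean against the lowest signal that counts as well above background on the fetal arrays. Under Benjamini-Hochberg adjustment 13 passed, 12 of them higher in adult cells, beside 30.0% of all tested probes and 14.0% in the adult direction, and the direction of those named above was fixed by the filter. Among these were Ccl12 and Ccl8, which follow Ccl11 on chromosome 11, at 5.60 ± 0.17 against 8.62 ± 1.17 and 5.26 ± 0.16 against 11.68 ± 1.53 in fetal and adult cells. Without adult replicate 3 the log2 difference moved from -3.02 to -2.36 for Ccl12 and from -6.42 to -5.66 for Ccl8. Cxcl17, a mucosal chemokine, was the 1 gene that passed under Benjamini-Hochberg adjustment in the fetal direction, at 7.07 ± 0.42 against 5.49 ± 0.40. Cx3cl1, a membrane-bound chemokine and the brightest of the list, was at 14.15 ± 0.25 against 15.34 ± 0.21, and was not called by the Holm rule.

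**Figure D5:**
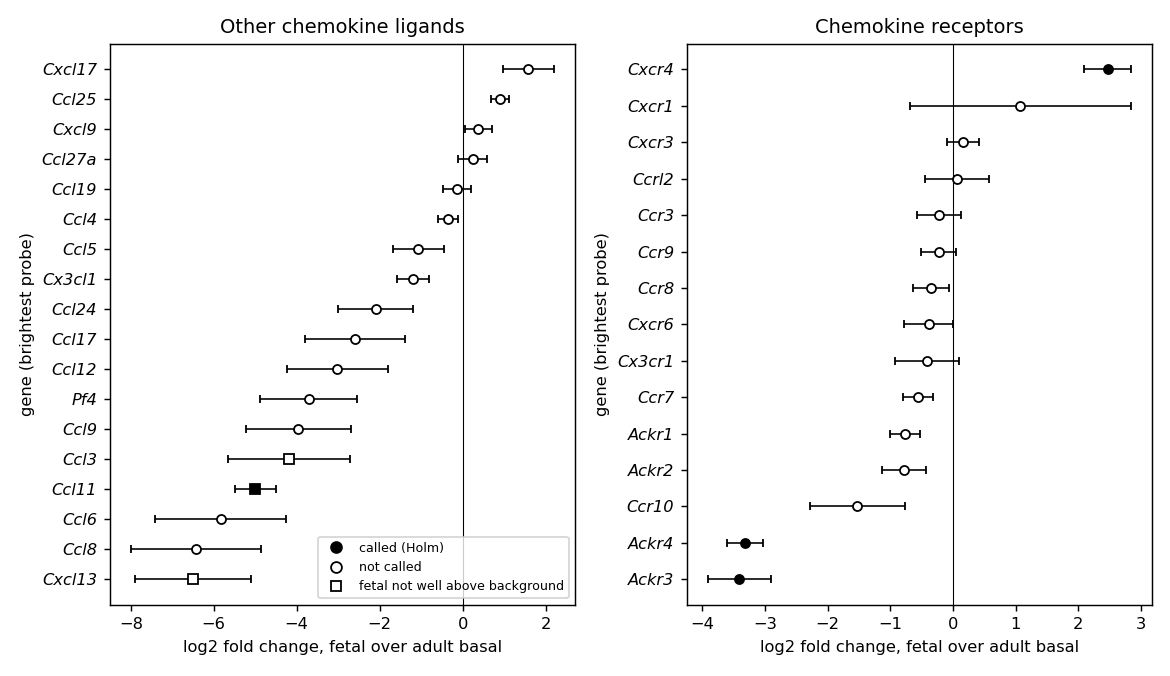
Log2 fold change, E18.5 fetal over adult basal (horizontal axes), of the brightest probe of the other tested chemokine ligands (left, 18 genes) and of the tested chemokine receptors (right, 15 genes), with 95% limma intervals. Most ligand estimates lie below 0, and the called receptors, as filled symbols, are Cxcr4 above 0 and Ackr3 and Ackr4 below 0; squares mark ligands not well above background on all 3 fetal arrays.

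The receptors of Cxcl12 moved in opposite directions. Cxcr4, its signalling receptor, read 10.002, 10.10 and 10.58 on the fetal arrays against 7.80, 7.76 and 7.72 on the adult arrays, the reverse of its ligand. The log2 difference was 2.47 (SE 0.16, 5.52-fold, Holm-adjusted p = 0.0179 in limma). Ackr3, which binds and removes Cxcl12, read 8.79, 8.73 and 8.70 on the fetal arrays against 12.50, 11.65 and 12.29 on the adult arrays, on the same side as Cxcl12. The log2 difference was -3.41 (SE 0.21, 10.6-fold, adjusted p = 0.0130). Neither call was firm: Cxcr4 was kept in 10 of 18 alternatives and was lost without any 1 of the arrays except fetal replicate 3 and with the slide as a block (adjusted p = 0.0813), and Ackr3 was kept in 12 and was lost without any 1 array except adult replicate 2. The highest adjusted p with 1 array left out was 0.207 for Cxcr4 and 0.216 for Ackr3. Both kept their sign, between 2.11 and 2.58 for Cxcr4 and between -3.66 and -3.15 for Ackr3. The groups did not overlap for either receptor, so leaving out an array could not turn the sign.

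Ackr4, a scavenger of Ccl19 and other CC chemokines, was the third of the 15 tested receptors to be called, beside 11.1% of all tested probes. It was at 6.06 ± 0.11 in fetal and 9.37 ± 0.16 in adult cells (log2 difference -3.32, SE 0.12, Holm-adjusted p = 3.44e-04 in limma), and it was kept in all 18 alternatives. None of the tested signalling receptors of the other ligands was called, and Cxcr2 and Ccr2 were under the low-signal limit and not tested. Cxcr2, the receptor of Cxcl1 and Cxcl2, was well above background on none of the fetal and on 2 of the adult arrays (3.42 ± 0.20 and 4.50 ± 0.30), and Ccr2, the receptor of Ccl2 and Ccl7, was well above background only on 1 adult array. Cxcr3, the receptor of Cxcl10, was at 7.08 ± 0.10 against 6.92 ± 0.10, and Cxcr6, the receptor of Cxcl16, at 6.09 ± 0.32 against 6.47 ± 0.03.

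Of the 5 tested enzymes and proteoglycans that process or hold chemokines, none was called, beside 11.1% of all tested probes. Under Benjamini-Hochberg adjustment 1 passed, beside 30.0% of all tested probes and 14.0% in the adult direction. It was Sdc4, a heparan sulfate proteoglycan, at 11.55 ± 0.17 in fetal and 12.81 ± 0.41 in adult cells. Adam10, which sheds Cxcl16, was at 12.73 ± 0.18 against 11.97 ± 0.03, a log2 difference of 0.77 in the direction opposite to Cxcl16. Dpp4, which trims Cxcl10 and Cxcl12, was below the low-signal limit in both groups and was not tested.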

How the data were processed

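The arrays were Agilent SurePrint G3 mouse arrays. After scanning, the authors extracted spot values with Feature Extraction 11.0.1.1, and the deposited spot intensity is background-subtracted, linear and not normalized between arrays. The authors also deposited quantile-normalized log2 values, which served as an alternative. The labels name a low-input labelling kit and the methods a whole-transcript version of it.

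Here control spots and outlier spots (104 to 326 an array) were removed, log2 intensities of spots of a probe averaged, and the 6 arrays quantile normalized. Accessions were matched without version to RefSeq (GRCm38.p6), naming 27235 of 55681 probes. The array design follows another assembly, so no probe coordinates are given, and promoter coordinates are those of RefSeq. Probes under the low-signal limit of 5.95 in both groups (lowest of 3 k-means clusters) were removed. The 20448 others went into a limma 3.58.1 fit (lmFit, eBayes; R 4.3.3), and p-values were adjusted over all of them. The brightest probe stood for a gene. On each array 76.4% to 83.3% of probes stood well above background, and 3 arrays a group limit the precision. The fit was tested on simulated data.

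The chemokine genes, all gene lists and the tests were chosen with earlier results of these data known. Named beside the 10 genes are tested ligands, receptors and processing genes, the 3 called genes of largest fold change in each direction in each regulator list, among those detected on all arrays, and the brightest and defining markers of each cell type. The alternatives were 75th percentile normalization, the deposited log2 values, normexp correction (offset 50, on the median spot intensity), dropping the low-signal filter or basing it on detection above background, keeping probes without a gene, Benjamini-Hochberg adjustment, eBayes with trend and robust estimation, an offset of 16, each array left out, replicate number or slide as a block, and the mean over a gene's probes.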

Additional observations from a re-analysis of the deposited data

How the results depend on the processing

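The 18 alternatives left Cxcl1, Cxcl12 and Cxcl14 called and the 9 tested chemokine genes, Cxcl5 excepted, with the same sign. Apart from Cxcl5, the groups of these genes did not overlap, so leaving out an array could not turn their sign. The sign of Cxcl5 turned without adult replicate 2 (-0.10), adult replicate 3 (-0.04), fetal replicate 1 (-0.13) or fetal replicate 2 (-0.11), against 0.28 without fetal replicate 3, and no sign is read from it. The count of called chemokine genes was 5 and fell to 3 without fetal replicate 1 or 2 (Cxcl1, Cxcl12 and Cxcl14; 3 to 5 over single arrays left out). Receptors fell from 3 to 1, Ackr4, with no low-signal filter, and to between 1 and 2 with single arrays left out. Other ligands rose from 1 to 13 under Benjamini-Hochberg adjustment and to 2 (Ccl11 and Ccl3) with the replicate block, and to between 1 and 3 with single arrays left out (3 without adult replicate 2, namely Ccl11, Ccl8 and Cxcl13; 2 without adult replicate 3, namely Ccl11 and Ccl6). All calls fell from 2270 to 1182 with no low-signal filter, to between 952 and 2014 with single arrays left out and to 1302 with the replicate block, and rose to 6133 under Benjamini-Hochberg adjustment. Where fewer arrays were used the design itself is smaller; for the other settings the cause was not tested. The labels do not say whether replicate numbers pair the samples. Same-numbered arrays correlated at -0.03, 0.09 and 0.05 in their deviations from the group means, and adult replicate 1 correlated best with fetal replicate 3 (0.12). With 3 arrays a group these values cannot show whether the samples were paired. With replicate number as a block 4 of the chemokine genes were called, Cxcl10 being lost (adjusted p = 0.147), and 2 receptors, Cxcr4 being lost (0.116). Signal over background limits Ccl20, Ccl3, Ccl11, Cxcl13, Esam and Cd52, and 3 arrays a group limit small differences such as that of Cxcl16.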
